A study of Mus musculus with 3 samples.

Results

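The replication-dependent histone genes supply the core histones H2A, H2B, H3 and H4 and the linker histone H1. They were taken as the genes of the GENCODE M1 annotation of mm9 whose symbol starts with Hist1h, Hist2h or Hist3h, which gave 69 of 37252 annotated genes. Of these, 66 were annotated as protein-coding and 3 (Hist2h3c2, Hist3h2bb-ps and Hist1h2aj) as pseudogenes. By type they were 6 H1, 20 H2A, 19 H2B, 12 H3 and 12 H4 genes. Runx3-bound regions, called peaks here, and regions marked by monomethylated lysine 4 of histone H3 (H3K4me1) were counted over each gene with 2 kb on either side and over each cluster of genes.

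The regions came from ChIP-seq of resting natural killer (NK) cells, freshly isolated from the spleen of ICR mice and fixed with formaldehyde. The 3 samples were precipitated with a home-made polyclonal antibody to Runx3, with a monoclonal antibody to H3K4me1, or with non-immune rabbit serum as the control, with 1 sample each. The labels name NKp46 as the sorting marker and the study's methods name DX5. Age and sex were not given in the labels.

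In a dividing cell these genes are transcribed during DNA replication, when new chromatin needs large amounts of histone protein. Their mRNAs end in a conserved stem-loop bound by Slbp instead of a poly(A) tail, and the genes lie in dense clusters, often as H2A and H2B pairs that are transcribed away from each other from a shared promoter. H3K4me1 marks enhancers and the flanks of active promoters, and Runx3 is a transcription factor of cytotoxic lymphocytes.

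The names were checked against the gene ends. The histone 3′ stem-loop, searched on the sense strand by its published consensus within 300 bases after an annotated stop codon, was found in 62 of the 66 protein-coding histone genes (93.9%), at a median of 33 bases after the stop. It was found in 15 of 22284 other protein-coding genes (0.0673%). The most frequent of 8 forms, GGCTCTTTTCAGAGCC, was carried by 39 histone genes. Hist2h2be, Hist2h2bb, Hist1h2an and Hist1h2al were the 4 coding genes in which no form was found.

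The sequence between the starts of a divergent pair shows how little room separates these genes. The histone genes held 14 such pairs, with starts a median of 228 bp apart (167 to 692 bp). Of the 14, 13 joined an H2A and an H2B gene. The 5 pairs printed here were picked by their Runx3 peak, H3K4me1 and the RUNX forms between the starts. They show a pair with a peak and such a form, and a pair with a peak and no such form. They also show a pair with no peak, and a duplicated pair with neither peak nor H3K4me1. All are the plus strand of mm9 between the annotated starts, at chr13:21845777-21845991, chr13:23775818-23776067, chr13:23663090-23663264, chr13:21902069-21902235 and chr13:21925445-21925611, in that order. Capitals mark a form of the RUNX consensus (the form TGTGGT, the form TGTGGC, the form TGCGGT or the form TGCGGC, on either strand) or the octamer ATTTGCAT on either strand, the site of the factor Pou2f1 (Oct1). Lower-case stretches hold neither.
Hist1h2ak-Hist1h2bn: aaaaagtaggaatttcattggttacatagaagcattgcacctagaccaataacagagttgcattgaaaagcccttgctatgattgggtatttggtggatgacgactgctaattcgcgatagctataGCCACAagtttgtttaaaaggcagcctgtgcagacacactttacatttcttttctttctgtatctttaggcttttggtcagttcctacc
Hist1h2ac-Hist1h2bc: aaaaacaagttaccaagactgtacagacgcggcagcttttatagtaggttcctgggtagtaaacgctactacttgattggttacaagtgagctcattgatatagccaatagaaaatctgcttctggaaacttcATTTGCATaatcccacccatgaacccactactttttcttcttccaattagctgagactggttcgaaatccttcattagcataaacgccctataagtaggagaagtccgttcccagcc
Hist1h2ae-Hist1h2bg: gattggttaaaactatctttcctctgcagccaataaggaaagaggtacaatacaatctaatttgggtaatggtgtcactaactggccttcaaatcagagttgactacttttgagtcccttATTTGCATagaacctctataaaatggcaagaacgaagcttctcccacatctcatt
Hist1h2bq-Hist1h2ao: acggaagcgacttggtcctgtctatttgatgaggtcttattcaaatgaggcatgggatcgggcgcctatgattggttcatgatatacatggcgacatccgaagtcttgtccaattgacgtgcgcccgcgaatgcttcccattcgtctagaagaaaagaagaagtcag
Hist1h2ap-Hist1h2br: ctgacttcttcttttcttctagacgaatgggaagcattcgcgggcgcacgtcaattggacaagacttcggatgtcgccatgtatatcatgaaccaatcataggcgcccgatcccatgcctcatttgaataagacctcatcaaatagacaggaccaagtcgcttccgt

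The last pair is the reverse complement of the one before it, with 0 mismatches over 167 bases. Per the labels the reads were 40 bases long, and unique alignments were kept, so a read lying wholly within these bases had at least 1 further exact match.

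**Figure D1:**
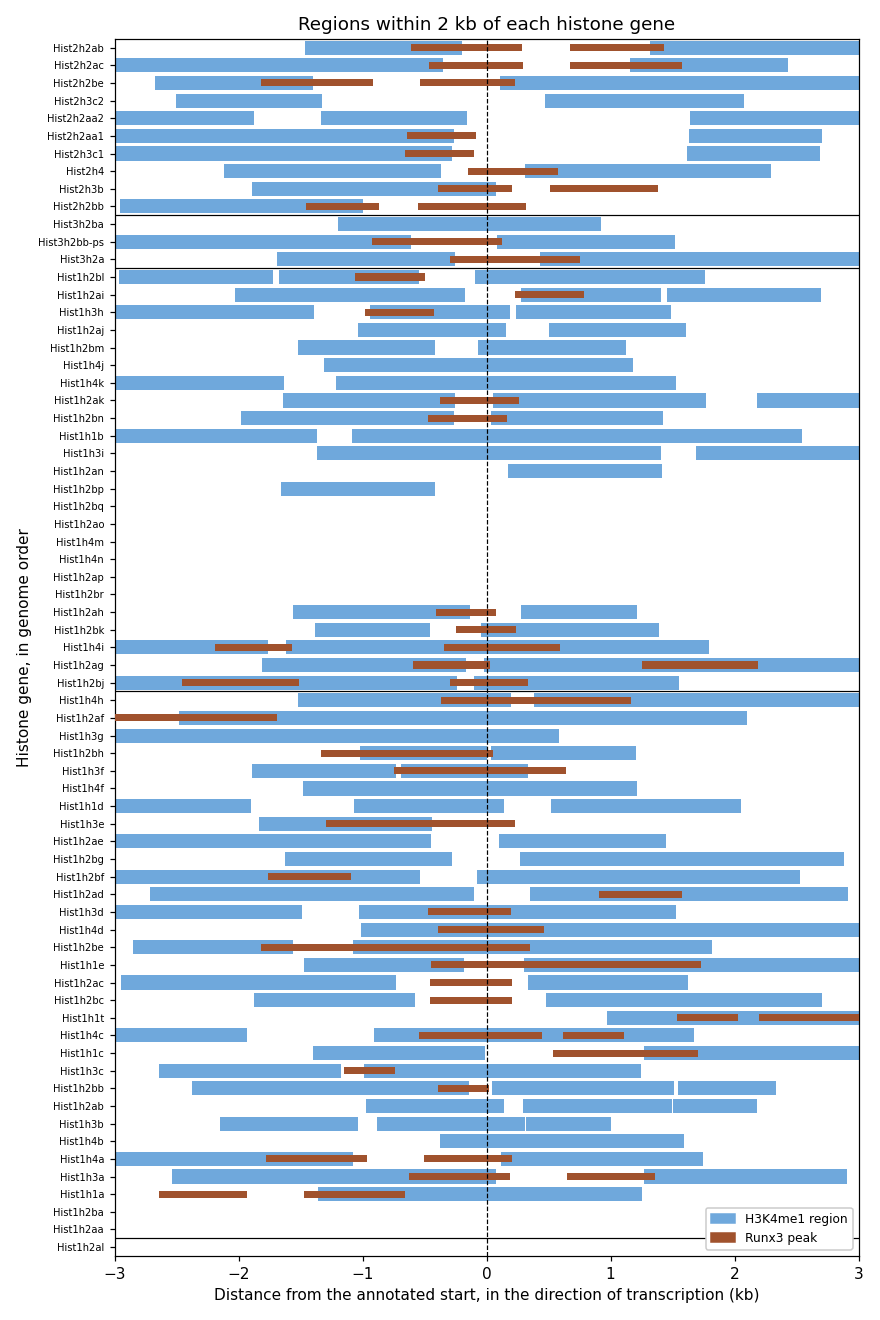
Runx3 peaks (brown) and H3K4me1 regions (blue) that lay within 2 kb of each of the 69 histone genes, from 3 kb before to 3 kb after its annotated start. Genes are in genome order, with distances in kb along the direction of transcription. Regions further than 2 kb from a gene are not drawn in its row. Lines separate the clusters, and 41 genes have a peak, 60 an H3K4me1 region and 9 neither within 2 kb of the gene.

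A Runx3 peak lay within 2 kb of 41 of the 69 histone genes (59.4%, 95% Wilson interval 47.6 to 70.2%). Among all 22350 protein-coding genes the share was 36.5%. An H3K4me1 region lay within 2 kb of 60 histone genes (87.0%, interval 77.0 to 93.0%), where the share of all protein-coding genes was 65.4%. All 41 genes with a peak also had an H3K4me1 region, 19 had H3K4me1 without Runx3, and 9 had neither. This overlap was not particular to histone genes. Of the 8167 protein-coding genes with a peak, 8130 also had an H3K4me1 region, and 6486 of the 22350 had H3K4me1 without Runx3. Such intervals cover counting error only, and neighbouring histone genes shared regions, so the genes are not independent. With 1 list per antibody there was no replicate spread, and no test was made.

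Histone genes are short, with a median length of 531 bp against 15428 bp for protein-coding genes, which makes a window around the whole gene smaller. In windows of 2 kb around the start, 41 histone genes again had a peak, and the share of protein-coding genes was 27.4%. H3K4me1 lay within 2 kb of the start in 60 histone genes and in 58.3% of protein-coding genes. The start itself lay inside a Runx3 peak in 29 histone genes (42%), against 21.4% of protein-coding genes. It lay inside an H3K4me1 region in 32 (46.4%), against 34.5%. When histone genes with overlapping windows were joined, 26 loci remained, of which 18 had a peak (69.2%) and 22 an H3K4me1 region (84.6%).

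**Figure D2:**
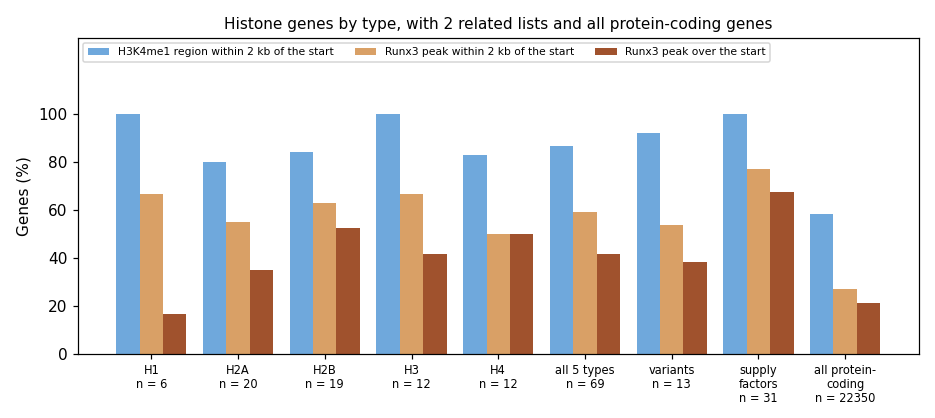
Percent of genes with an H3K4me1 region within 2 kb of the start (blue), a Runx3 peak within 2 kb of the start (tan) and a Runx3 peak over the start (brown). Groups are the 5 histone types, the 69 histone genes together, 13 histone variant and related genes, 31 histone supply factor genes and all 22350 protein-coding genes. Bars start at 0 and have no error bars because each antibody had 1 list, and H1 has the lowest share of starts under a peak, 1 of 6.

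H4 pairs with H3 in the core of the nucleosome, and 6 of its 12 genes had a peak, in every case over the start. Their peak midpoints lay 34 bp from the start of Hist1h4d, 52 bp from that of Hist1h4c, 124 bp from Hist1h4i, 153 bp from Hist1h4a, 213 bp from Hist2h4 and 399 bp from Hist1h4h. The 12 H4 genes encode 1 identical protein of 102 residues from 11 distinct coding sequences, so the genes with and without a peak make the same product. Of the 6 H4 genes without a peak, Hist1h4f, Hist1h4j, Hist1h4k and Hist1h4b carried H3K4me1 over the start, and Hist1h4m and Hist1h4n had no region.

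H3 is the histone that carries the lysine read out by H3K4me1. All 12 H3 genes had an H3K4me1 region within 2 kb and 9 had it over the start, the highest share of the 5 types (75.0%). A peak lay within 2 kb of 8 H3 genes and over the start of 5. The midpoints were 52 bp from the start of Hist1h3f, 96 bp from Hist2h3b, 139 bp from Hist1h3d, 217 bp from Hist1h3a and 535 bp from Hist1h3e. The peaks beside Hist2h3c1, Hist1h3h and Hist1h3c ended or began 104, 427 and 739 bp from their starts. The 10 H3 genes with a single coding exon encode 2 proteins, and of the 6 genes for the commoner protein 5 had a peak. Of the H3 genes outside those 6, Hist1h3a, Hist1h3h and Hist2h3c1 had a peak and Hist1h3g, Hist1h3i and Hist2h3c2 did not. The difference was not tested.

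H2A and H2B form the dimers on the faces of the nucleosome and are the types that pair head to head. A peak lay within 2 kb of 11 of 20 H2A genes and 12 of 19 H2B genes, and over the start of 7 and 10. The start lay inside H3K4me1 in 4 H2A genes and 8 H2B genes. Peaks over H2A starts were those of Hist2h2ab, Hist2h2ac, Hist3h2a, Hist1h2ak, Hist1h2ah, Hist1h2ag and Hist1h2ac. Peaks over H2B starts were those of Hist2h2be, Hist2h2bb, Hist3h2bb-ps, Hist1h2bn, Hist1h2bk, Hist1h2bj, Hist1h2bh, Hist1h2be, Hist1h2bc and Hist1h2bb. Hist2h2aa1, Hist1h2ai, Hist1h2af, Hist1h2ad, Hist1h2bl and Hist1h2bf had a peak within 2 kb but not over the start. Beside Hist1h2bk the midpoint of the peak lay 9 bp from the start, the shortest distance among all peaks at histone genes.

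H1 binds the linker DNA between nucleosomes. All 6 H1 genes had H3K4me1 within 2 kb, 4 had a peak and 1 had a peak over the start. That gene was Hist1h1e, whose peak at chr13:23712645-23714816 was the widest at any histone gene (2172 bp) and also covered the start of Hist1h2be. It ran from -445 to 1726 bp relative to the Hist1h1e start, past the end of a gene of 748 bp. At Hist1h1c the nearest peak base lay 535 bp and at Hist1h1a 657 bp from the start. Hist1h1b and Hist1h1d had no peak, with H3K4me1 over the start in both.

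Hist1h1t, Hist1h2aa and Hist1h2ba encode histones of the male germ line. Hist1h2aa and Hist1h2ba form a divergent pair and had no region of either kind within 2 kb. Their nearest H3K4me1 regions lay 22367 and 22061 bp from the start, and their nearest peaks 134460 and 134154 bp away. In their windows 95.4% and 95.6% of the 40-base words occurred once in mm9, a higher share than in most histone gene windows. Hist1h1t had no region over its start. Its nearest H3K4me1 region began 970 bp and its nearest peak 1532 bp after the start, and both of its peaks had Hist1h4c as the nearest histone gene.

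The histone genes lie in 3 clusters, of which the Hist1 cluster falls into separate blocks. Hist2, on chromosome 3, held 10 genes in 59.1 kb (chr3:96023839-96082924), 8 peaks and 10 H3K4me1 regions, with 33.7% of its bases marked. Of its 10 genes, from Hist2h2ab to Hist2h2bb, 8 had a peak and 10 had H3K4me1. Hist3, on chromosome 11, held Hist3h2ba, Hist3h2bb-ps and Hist3h2a in 7.76 kb (chr11:58762413-58770176), with 1 peak that covered the starts of Hist3h2bb-ps and Hist3h2a, and 3 H3K4me1 regions. Hist3h2ba had H3K4me1 over its start, and its nearest peak lay 5481 bp away.

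The first Hist1 block on chromosome 13 ran from Hist1h2bl to Hist1h2bj (chr13:21807632-22135545, 24 genes) and the second from Hist1h4h to Hist1h2aa (chr13:23622919-24026720, 31 genes). A peak lay within 2 kb of 10 genes of the first block and 21 of the second, and H3K4me1 within 2 kb of 18 and 29. The blocks held 33.5 and 39.6 peaks per Mb and 94.5 and 91.6 H3K4me1 regions per Mb. All chromosomes together held 5.88 peaks and 18.9 H3K4me1 regions per Mb. These densities were not corrected for gene density. The blocks held 24 and 31 histone genes in 327.9 and 403.8 kb, and all chromosomes 22350 protein-coding genes in 2638993 kb. Of the 11 and 16 peaks in the blocks, 6 and 3 lay over 2 kb from any histone gene. In the 1487 kb between the blocks, where most of the 38 protein-coding genes are Vmn1r pheromone receptor genes, the densities were 6.05 and 14.8 per Mb. The interval was thus near the whole genome in peaks and below it in H3K4me1 regions. A single gene, Hist1h2al at chr13:51298057-51298434, lay apart from the clusters and had neither region within 2 kb.

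**Figure D3:**
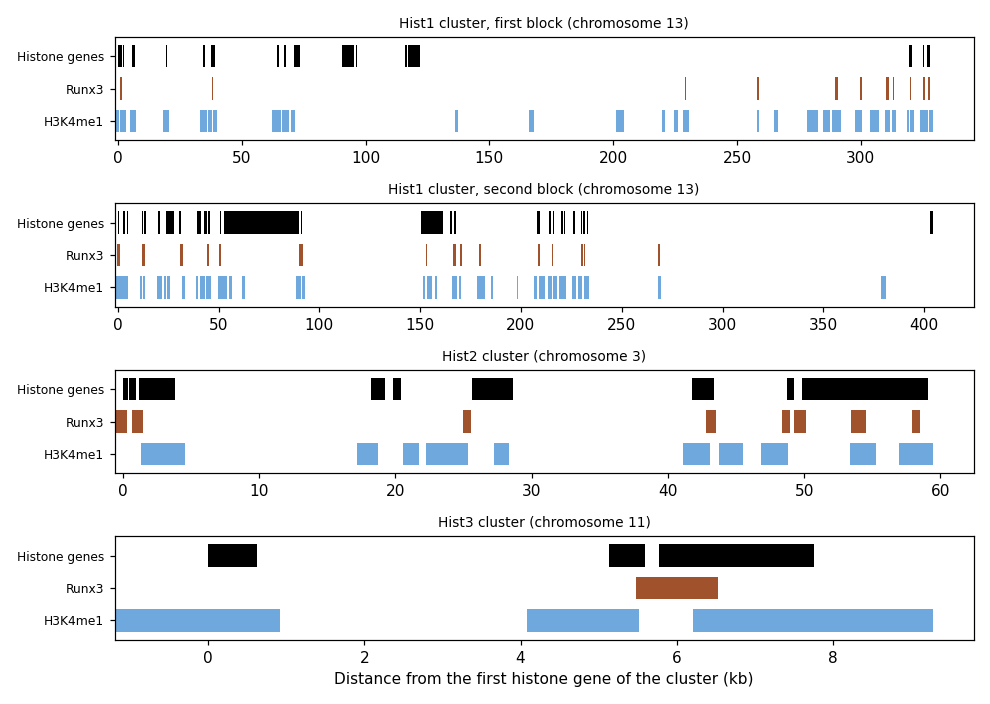
Histone genes (black), Runx3 peaks (brown) and H3K4me1 regions (blue) across both Hist1 blocks, Hist2 and Hist3, in kb from the first histone gene of each. Very short features are drawn wider so that they can be seen, and the 6 genes of the duplicated stretch in the first Hist1 block have no region beside them.

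The 41 genes with a peak shared 27 distinct peaks. Of these peaks, 22 lay within 2 kb of at least 2 histone genes, 21 covered at least 1 histone gene start and 8 covered 2 starts. The midpoint was a median of 163 bp from the nearest histone gene start, under 500 bp in 20 peaks, 500 to 1000 bp in 4 and at least 1 kb in 3. Those 3 were the peak in the body of Hist1h1c, 1120 bp from its start, and 2 peaks in the annotated span of Hist2h2bb, 4173 and 8408 bp from its start. The widths, with a median of 765 bp (414 to 2172 bp), were close to the median of 825 bp over all 15524 peaks.

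Most peaks at histone genes sat where H3K4me1 was present or began. Of the 27 peaks 25 overlapped an H3K4me1 region (92.6%), against 95.7% of all peaks and 95.2% of the 4924 peaks centred less than 1 kb from a protein-coding start. The midpoint lay inside H3K4me1 in 18 (66.7%), against 83.6% of all peaks and 61.8% of those near a start. It lay in a gap with H3K4me1 on both sides within 2 kb in 8 (29.6%), against 11.1% and 30.7%. The peaks at histone genes were thus near the other promoter peaks on these measures. The 2 peaks without overlap were those over the starts of Hist2h2bb and of the pair Hist1h2ac and Hist1h2bc, and at the pair the peak lay between flanking H3K4me1 regions.

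Positions near the start lay inside an H3K4me1 region less often than positions on its flanks, with or without a peak over the start. The lists hold no signal level, and the part of repeated sequence near the starts was not tested. In the 29 histone genes with a peak over the start, H3K4me1 covered 89.7% of positions 800 bp before the start, 34.5% at 100 bp before it and 75.9% at 800 bp after it. In the 31 with H3K4me1 within 2 kb and no peak over the start, the shares were 87.1%, 54.8% and 77.4%. In protein-coding genes with a peak over the start they were 85.0%, 60.4% and 90.8%, with the low point just after the start (51.5% at the start). Among genes with H3K4me1 within 2 kb of the start, the start was itself inside the mark in 13 of 29 histone genes with a peak over it (44.8%), in 6 of 12 with a peak near but not over it and in 13 of 19 with no peak (68.4%). Over protein-coding genes the same shares were 51.6%, 60.7% and 64.1%.

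**Figure D4:**
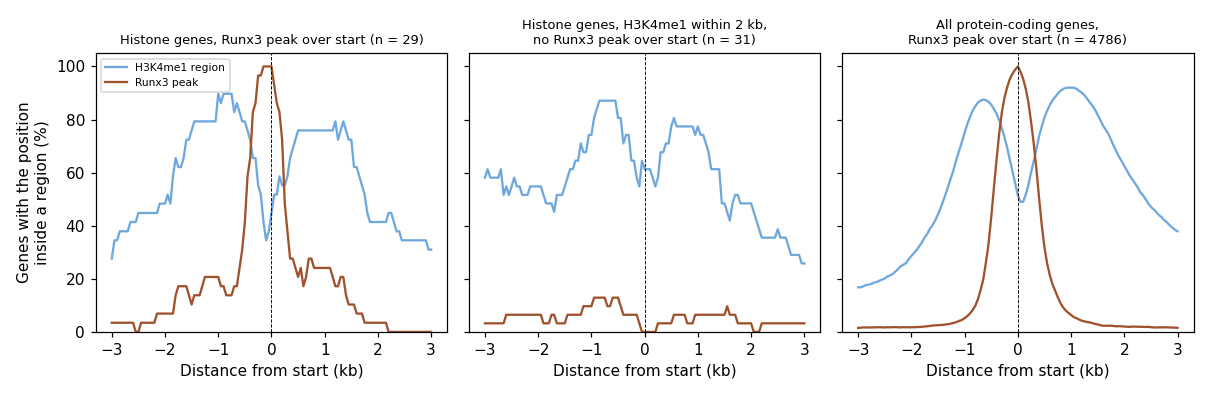
Percent of genes whose position at each distance from the start (kb, in steps of 50 bp, along the direction of transcription) lies in an H3K4me1 region (blue) or a Runx3 peak (brown). The left panel has 29 histone genes with a peak over the start, the middle 31 with H3K4me1 within 2 kb and no such peak, and the right 4786 protein-coding genes with a peak over the start, and H3K4me1 dips near the start in each.

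The gap in H3K4me1 around the start could be measured in genes flanked on both sides. Neighbouring genes can share 1 gap, which is then counted once per gene. The gap had a median of 691 bp (187 to 1509 bp) in 14 histone genes with a peak over the start, and 513 bp in 1950 such protein-coding genes. Hist2h2ab, Hist2h2ac and Hist2h2be shared the gap of 1509 bp. The median was 1280 bp in 5 histone genes with a peak near but not over the start and 1172 bp in 4 with no peak within 2 kb of it, against 885 bp and 502 bp in protein-coding genes. Among the 5, Hist2h2aa1 and Hist2h3c1 shared a gap of 1895 bp. Among the 4, Hist2h3c2 and Hist2h2aa2 shared 1796 bp, and Hist1h2ae and Hist1h2bg shared 549 bp. These medians thus rest on very few gaps. In the gap at Hist1h2bb (187 bp), and in that shared by Hist1h2ak and Hist1h2bn (303 bp), every 40-base word occurred once in mm9. In the gaps shared by Hist2h3c2 with Hist2h2aa2, and by Hist2h2aa1 with Hist2h3c1, only 7.0% and 7.2% of words did so. Over all 23 genes with such a gap, the median share of unique words in it was 73.9%, against 88.8% in the H3K4me1 regions and 82.3% in the peaks at histone genes. That median was 78.2% in the 14 genes with a peak over the start and 45.7% in the 9 without, so the gap widths of these groups are not directly comparable. The part of repeated sequence in the gaps was not tested.

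Of the 14 divergent pairs, 7 had a peak between the starts. They were Hist2h2ac-Hist2h2be, Hist3h2bb-ps-Hist3h2a, Hist1h2ak-Hist1h2bn, Hist1h2ah-Hist1h2bk, Hist1h2ag-Hist1h2bj, Hist1h2bh-Hist1h3f and Hist1h2ac-Hist1h2bc. H3K4me1 lay within 2 kb of 11 pairs. The stretch between the starts was free of H3K4me1 in 9 pairs, of which 5 had the mark on both sides, and 4 of those 5 had a peak. The fifth was Hist1h2ae-Hist1h2bg, printed above, which had flanking H3K4me1 and no peak within 2 kb. Its sequence between the starts and that of Hist1h2ac-Hist1h2bc both held the octamer and no RUNX form, and the first had no peak while the second had one. The whole peak at Hist1h2ac-Hist1h2bc held 1 RUNX form, 258 bp from its midpoint and outside the printed stretch.

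The RUNX consensus (the 4 forms above, both strands) was present in 25 of the 27 peaks (92.6%), against 93.3% of all peaks and 91.2% of peaks centred less than 1 kb from a protein-coding start. In the central 200 bp it was present in 17 (63%), against 69.2% and 59.7%. The density was 2.44 matches per kb at histone genes, 3.19 over all peaks and 2.90 near protein-coding starts. The forms TGTGGT and TGTGGC were found in 48.1% and 33.3% of peaks at histone genes, where all peaks had 65.5% and 54.1% and peaks near starts had 41.8% and 46.9%. TGCGGT and TGCGGC were found in 33.3% and 51.9%, where all peaks had 24.7% and 26.1% and peaks near starts had 37.8% and 52.8%. Over whole peaks the share with any form was thus within 2 percentage points of that near protein-coding starts, and the shares of single forms, which were not tested, differed in both directions.

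Single peaks ranged from 0 to 10 matches, with a median of 2. The 2 peaks with 0 matches covered the neighbouring starts of Hist1h4a and Hist1h3a, and the peak with 10 was the wide one at Hist1h1e. The match closest to the midpoint of its peak, at 3 bp, was at Hist1h2bb, upstream of the start. The 80 bases around that midpoint (chr13:23838377-23838456, plus strand of mm9) are printed with the RUNX form in capitals.
Hist1h2bb peak centre: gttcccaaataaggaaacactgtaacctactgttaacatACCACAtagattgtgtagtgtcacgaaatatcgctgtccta

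In windows from 250 bases before to 50 after the start, the RUNX consensus was found in 39.1% of histone genes and 45.3% of protein-coding genes. It was found in 12 of the 29 histone genes with a peak over the start (41.4%) and 15 of the 40 without (37.5%), and in 59.3% of the 4786 protein-coding genes with a peak over the start. Other promoter elements were found more often in histone genes. The octamer ATTTGCAT (both strands) was found in 23.2% of histone genes and 1.73% of protein-coding genes. It was found in 7 H2A and 9 H2B genes and in 0 genes of the other types. CCAAT (both strands), the site of the factor NF-Y, was found in 85.5% of histone genes and 37.9% of protein-coding genes, and TATAAA (both strands) in 55.1% and 13.4%. H4 was the exception for CCAAT, with 4 of 12 genes (33.3%), where the other types had 91.7% to 100%. The octamer was found in 10 of the 29 histone genes with a peak over the start and 6 of the 40 without. Genes of a divergent pair have overlapping windows and can share 1 octamer and 1 peak, so these counts are not independent. Between the starts, 4 of the 7 pairs with a peak held the octamer, and 2 of the 7 pairs without. The difference was not tested. The median GC content of the windows was 46.0% for histone genes and 55.3% for protein-coding genes. Such matches describe the letters of the window and do not show that a factor was bound.

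The number of unique 40-base words differed greatly between histone genes. The median over windows of 2 kb around the start was 84.2%, against 97.5% for protein-coding genes, and 65.2% of histone genes lay under 90%, against 17.5%. Of the 9 genes with neither region, 6 lay in a duplicated block at chr13:21898281-21929399, as a pair each of H2A, H2B and H4 copies. The shares over the gene with 2 kb on either side were 0.516% for Hist1h2bq, 2.39% for Hist1h2ao, 3.81% for Hist1h4m, 26.3% for Hist1h4n, 2.59% for Hist1h2ap and 0.40% for Hist1h2br. Hist1h2bq and Hist1h2br, each 3788 bp, were identical, as were Hist1h2ao and Hist1h2ap at 519 bp. Hist1h4m and Hist1h4n, annotated at 402 and 430 bp, were 93.3% identical, with 1 mismatch and 28 gap positions. These were the 6 histone genes with under 50% unique words, and 0 of them had a region, and most of their sequence was closed to uniquely aligned reads. The other 3 genes with neither region were the germline pair, at over 95% unique words, and Hist1h2al, at 78.4%.

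Among genes with mostly unique sequence the counts were close to those of all histone genes. Of the 25 with at least 90% unique words, 15 had a peak (60.0%) and 23 had H3K4me1 (92.0%). Of the 38 with 50 to 90%, 26 had a peak and 37 had H3K4me1. Hist2h2aa1 and Hist2h2aa2 are identical copies of 578 bp with 0% unique words in the gene. A peak ended 88 bp before the start of Hist2h2aa1, and the same peak was the nearest to Hist2h2aa2, 4600 bp from its start. Within 500 bp of their starts only 30.2% and 30.1% of words were unique, so whether the copies differed in Runx3 is unknown.

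**Figure D5:**
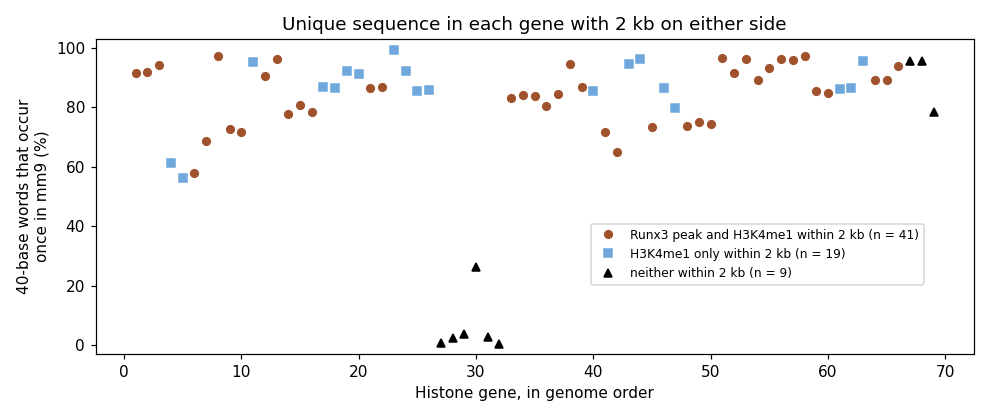
Percent of 40-base words that occur once in mm9 in each histone gene with 2 kb on either side, with the 69 genes in genome order. Brown circles are the 41 genes with a peak and H3K4me1, blue squares the 19 with H3K4me1 only and black triangles the 9 with neither, of which 6 lie under 30%.

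Histone variants are largely made outside replication and replace the replication-dependent histones in chromatin. Of 13 variant and related genes, 8 had a peak within 2 kb (61.5%, against 36.5% of protein-coding genes) and 12 had H3K4me1 (92.3%, against 65.4%). The 8 were H2afx, H2afz, H2afv, H2afy, H3f3a, H3f3b, Cenpa (the H3 of centromeres) and Hist4h4. The 5 without were H2afy2, H2afj, H1f0, H1fx and the oocyte gene H1foo, and H1foo was also the gene without H3K4me1. Over the start, 5 had a peak (38.5%), against 42% of the histone genes and 21.4% of protein-coding genes. Among these 5 were H2afx and Hist4h4, which carry the histone 3′ stem-loop. Hist4h4 is named as an H4 gene and not as a variant, so the list is not a clean contrast to the replication-dependent genes.

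Genes whose products transcribe histone genes, process histone mRNA or carry histone proteins formed a list of 31. Of these, 27 had a peak within 2 kb (87.1%, interval 71.2 to 94.9%), against 36.5% of protein-coding genes, and 31 had H3K4me1, against 65.4%. The peak covered the start in 21 (67.7%), against 21.4%, and H3K4me1 covered the start in 6 (19.4%), against 34.5%. Those with a peak over the start included Npat, the coactivator of histone gene transcription, Hinfp, a factor for H4 promoters, Slbp, the stem-loop binding protein, Lsm10 and Lsm11 of the U7 particle that cleaves histone mRNA, and the chaperone genes Chaf1a, Chaf1b, Asf1b, Nasp and Hira. The others were Casp8ap2, Cpsf2, Cpsf3, Cstf2, Ncbp1, Ncbp2, Hat1, Rbbp4, Ubn1, Cabin1 and Daxx. A peak within 2 kb of the gene but not over the start was found at Pou2f1, Ccne1, Cdk2, Zfp473, Srrt and Asf1a. At Cdk2, Zfp473 and Srrt no peak lay within 2 kb of the start. The 4 without a peak were Sympk, Eri1, Rbbp7 and Atrx. These genes are longer than the histone genes, and in windows of 2 kb around the start 24 of the 31 had a peak, against 27.4% of protein-coding genes.

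The whole lists held 15524 Runx3 peaks and 49902 H3K4me1 regions and give no read numbers, so the depth at a region is unknown and no signal strength could be compared. A Runx3 peak lay within 2 kb of all 8 NK marker genes checked (Ncr1, Klrb1c, Klrd1, Itga2, Eomes, Prf1, Gzmb and Il2rb), of 2 of 4 B cell genes, 1 of 3 T cell genes, 1 of 3 myeloid genes and 0 of 2 erythroid genes. H3K4me1 lay within 2 kb of 8, 3, 2, 3 and 1 of them. Among all protein-coding genes the shares were 36.5% with a peak and 65.4% with H3K4me1. The lists of the other lineages are too short to set them apart from these shares.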

How the data were processed

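The authors sequenced reads of 40 bases per the labels (the study's methods allow slightly longer ones), aligned them to mm9 with ELAND, kept unique alignments, joined the reads of biological repeats and called regions with MACS against the non-immune serum library. The series holds 1 sample per antibody, so each list may rest also on reads of repeats not analysed here. The processing notes name CASAVA 1.7. The deposited files give region coordinates only, with no count, score or control signal. Starts were taken as 0-based and are printed 1-based on mm9.

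Genes came from GENCODE M1 on 20 chromosomes, and a gene's start was its annotated 5′ end. Any shared base counted as overlap. The genes, the variant, supply factor and marker lists, and the naming rule (every gene with a peak, without H3K4me1, at a cluster's end, of the germ line or least unique) were chosen with earlier results of these data known. The stem-loop pattern was widened after a narrower one had found 48 genes. Unique words were exact matches over both strands of mm9, which does not model mismatches. Python 3.11.15, numpy 2.4.6, pysam 0.24.0, Biopython 1.88 and matplotlib 3.10.9 were used, and the overlap, word and motif steps were tested on simulated data.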

Additional observations from a re-analysis of the deposited data

How the results depend on the processing

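Of 56 alternatives tried for 12 results, 36 moved the value by less than its own counting interval or, for counts of regions, by less than 1.5 times, and 20 moved it further; 4 were added after seeing the data. With no flank, Runx3 peaks lay at 44.9% of histone genes (33.6% of protein-coding genes), H3K4me1 at 76.8% (63.3%) and both at 40.6%. With 5 kb, Runx3 lay at 75.4% (39.8%) and both at 75.4%. With regions wider than the median alone, Runx3 lay at 30.4% (22.9%), H3K4me1 at 68.1% (50.5%) and both at 26.1%, 30.4% of starts lay in H3K4me1, the clusters held 16 peaks instead of 36 and 38 H3K4me1 regions instead of 81, and supply factor genes had 67.7% and 80.6%. Without the Hist1 family, the 13 genes left had Runx3 and both at 76.9% and H3K4me1 at 100%. At 500 bp before the start, 69.6% lay in H3K4me1. The pooled share of unique words was 79.0%, and 77.4% with 32-base words and 70.0% in gene bodies. The RUNX consensus was in 63% of central 200 bp windows. In these window and width settings the shares of histone genes with Runx3 and with H3K4me1 were above those of protein-coding genes.

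With 1 list per antibody there was no replicate to leave out, no spread and no test. No paired analysis was possible because each group has 1 sample. Identical copies take no unique reads, so presence or absence of a region there is unknown. The lists hold no depth, and weak binding below the calling threshold was not measurable.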

Other observations

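H2afx and Hist4h4 carry symbols outside the naming rule but were 2 of the 15 other protein-coding genes with the histone 3′ stem-loop, at 49 and 57 bases after the stop. Both had a Runx3 peak and an H3K4me1 region over the start.

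The first Hist1 block held 6 peaks and 15 H3K4me1 regions over 2 kb from any histone gene, and the second held 3 and 5. The other protein-coding genes in the blocks were Zfp184, Pom121l2 and Prss16 in the first, and Hfe, Trim38, Slc17a1, Slc17a2, Slc17a3, Slc17a4 and Gm17658 in the second.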
